A study of Asparagus officinalis with 12 samples.

Results

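LOC109820675 and LOC109844968 are the 2 asparagus genes described as early nodulin-93-like that were picked, out of 35166 genes in the table, for their strong rise at 25 cm compared with 10 cm. The genes were thus chosen by their measured levels at these heights, under a label that calls 25 cm their peak. Their levels at H-25, and that these stand above the other heights, are given as a description with no test. Another gene of the table, LOC109845576, carries the same description and was not part of that choice. RNA was sequenced from stems of the asparagus 'Fengdao 2' when the stem stood 10 cm (H-10), 25 cm (H-25), 40 cm (H-40) or 60 cm (H-60) tall, and each height had 3 libraries. The H-10 segment was cut 3 to 6 cm above the soil and the segment of the taller stems 17 to 20 cm above it, so H-10 vs. H-25 compares both stem heights and stem positions, and these cannot be told apart. The paper names biological replicates for each stage and repeated sequencing, but it does not say how many stems entered a library. A p-value here thus covers only library-to-library spread, which may be partly technical.

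Early nodulins were named for genes that are switched on early when legume roots form nodules with nitrogen-fixing bacteria. Early nodulin-93 was named in soybean, but related genes occur in plants that form no nodules, including rice and Arabidopsis. The proteins are small and membrane-bound. In rice, a member of the family responds to nitrogen supply, and in Arabidopsis the protein acts on cytochrome c oxidase of the mitochondrial respiratory chain. Their role in the asparagus stem is not known from these data.

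LOC109820675 lies on chromosome 8 from 14837895 to 14838761, on the minus strand, and the length used for its FPKM is 568 bases. LOC109844968 lies on chromosome 6 from 21153187 to 21154363, on the minus strand, with 529 bases. LOC109845576 lies on the same chromosome from 33075914 to 33084577, on the plus strand, with 698 bases. Coordinates are those of the table and equal those of Aspof.V1. The table matched LOC109820675 to soybean early nodulin-93 in Swiss-Prot but gave it no Pfam family, while LOC109844968 and LOC109845576 carry Pfam's ENOD93 family. No gene of the table overlaps LOC109820675 or LOC109844968. How reads that match more than 1 related gene were counted could not be read from the sources used.

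The libraries held 13468440 to 16980659 fragments, and 1 fragment in a gene of 1 kb was worth 0.0522 to 0.0795 FPKM (a level that is divided by gene length and by library size). The 7 xylem genes listed for the check of the tissue were above 0 in every library. H-25 replicate 2 stood apart from the other H-25 libraries, with 3.82% of its fragments in cytosolic ribosomal protein genes, against the highest value of 7.84% at that stage. The 56 heat shock genes, listed to check the state of the libraries, held 1.62% of fragments in H-10 replicate 1. In H-10 replicates 2 and 3 they held 1.01% and 1.14%, and at the other stages 0.73% to 1.21%. A gene was called at an adjusted p of at most 0.05 and an absolute log2 difference of at least 1, from limma on log2(FPKM + 1) with Benjamini-Hochberg adjustment over the 20352 genes that reached 1 FPKM in 3 libraries. In H-10 vs. H-25, 313 genes (1.54%) were called higher and 592 (2.91%) lower at H-25. After rescaling to TPM these were 201 higher and 1082 lower, with the median of all genes shifted by -0.18. Without H-25 replicate 2 they were 878 higher and 1158 lower, without H-25 replicate 1 they were 86 and 307, without H-25 replicate 3 they were 90 and 235, and without H-10 replicate 2 they were 107 and 228.

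LOC109820675 was abundant at H-25 and, relative to its level, varied most at H-10 and H-60. It was measured at 151, 11.9 and 40.0 FPKM in the H-10 libraries, at 1604, 574 and 1351 FPKM in the H-25 libraries, at 125, 43.3 and 77.1 FPKM in the H-40 libraries, and at 1.38, 11.1 and 54.5 FPKM in the H-60 libraries (replicates 1, 2 and 3). Every H-25 library was above every other library, and the lowest of them was 3.79 times the highest of the other 9. The H-10 and H-40 libraries overlapped, and so did H-40 and H-60. By its mean FPKM the gene ranked 48 of 20352 genes in H-25 stems, against rank 1895 in H-10 stems, 1604 in H-40 stems and 5473 in H-60 stems.

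These levels rest on many fragments at H-25 and on few in H-60 replicate 1. The gene had 1649, 112 and 347 fragments in H-10 stems and 14562, 4576 and 12761 in H-25 stems. It had 1101, 350 and 551 in H-40 stems, and 11, 82 and 454 in H-60 stems. For the 11 fragments of H-60 replicate 1, the 95% Poisson interval was 5.49 to 19.7, and for the 454 of replicate 3 it was 413 to 498. The intervals cover counting error only, and the H-60 libraries thus differed by more than counting error.

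LOC109844968 had the same peak at a far lower level. Its FPKM was 4.64, 2.28 and 5.70 in H-10 stems, 61.6, 21.4 and 40.0 in H-25 stems, 3.04, 0.931 and 2.10 in H-40 stems, and 0, 0.146 and 3.87 in H-60 stems. All H-25 libraries were again above the other 9, the lowest at 3.76 times the highest of these. At H-10, H-40 and H-60 each pair of neighbouring stages in the order of levels overlapped. Its rank by mean FPKM was 3258 in H-25 stems, against 13595 in H-10 stems, 16008 in H-40 stems and 17501 in H-60 stems. At H-60 it had 0, 1 and 30 fragments, and a count of 0 in replicate 1 allows up to 3 fragments, or 0.406 FPKM. Both genes had at least 1 FPKM in every H-10 library, so neither passed the filter through H-25 alone.

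**Figure D1:**
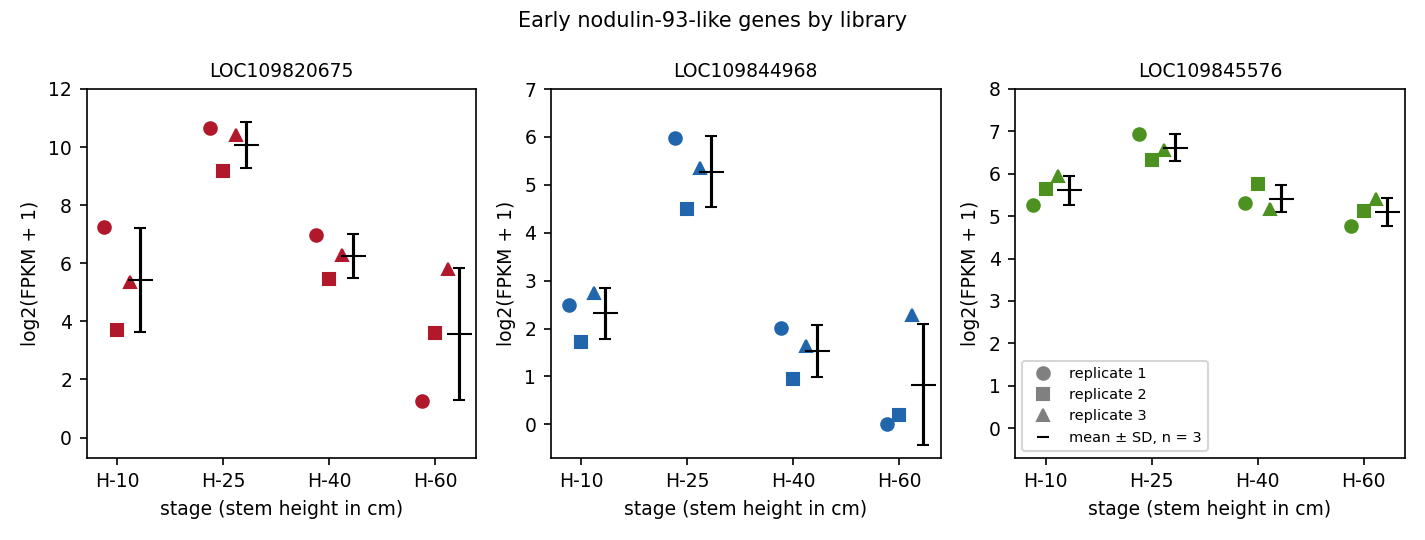
log2(FPKM + 1) of the 3 early nodulin-93-like genes (1 panel each, with its own vertical scale) in the 12 libraries by stage; symbols mark the replicate, and the dash with bars is the mean ± SD (n = 3). In all 3 panels the H-25 libraries lie above the other 9, with LOC109820675 at 574 FPKM or more at H-25, against 151 FPKM or less elsewhere.

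The stage means of LOC109820675 were 67.8 ± 73.8 FPKM in H-10 stems, 1177 ± 537 in H-25 stems, 81.7 ± 40.9 in H-40 stems and 22.3 ± 28.3 in H-60 stems (SD, n = 3 each). Those of LOC109844968 were 4.20 ± 1.75, 41.0 ± 20.1, 2.03 ± 1.06 and 1.34 ± 2.19 FPKM, in the same order of stages. At H-10 and H-60 the SD of LOC109820675 exceeded its mean, and at H-60 that of LOC109844968 did. The H-25 mean of LOC109820675 was 17.4 times its H-10 mean, and that of LOC109844968 was 9.76 times its H-10 mean. The ratio of LOC109820675 rests on H-10 replicate 1: without it the H-10 mean was 25.9 FPKM and the ratio 45.3, while leaving out any other H-10 or H-25 library gave 12.3 to 21.8. For LOC109844968 the ratio was 7.31 to 12.1 when each was left out. Without H-25 replicate 2, the H-25 means were 1478 and 50.8 FPKM.

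On the log2(FPKM + 1) scale, LOC109820675 was 4.64 ± 1.03 higher at H-25 than at H-10 (SE) and LOC109844968 was 2.95 ± 0.57 higher. Among the 20352 genes these were the differences of rank 3 and rank 25. The choice of the genes names no threshold. LOC109845576, the other early nodulin-93-like gene, stood at rank 677. Both chosen genes are among the 313 called higher at H-25 by their choice, and nothing is read from that. The call itself was not steady. Of the 12 fits without 1 library, LOC109820675 was called in 8. Its call was lost when H-10 replicates 2 and 3 and H-25 replicates 1 and 3 were each left out. LOC109844968 was called in 9 of 12, with the call lost without H-10 replicate 2, H-25 replicate 1 or H-25 replicate 3. These counts reuse the levels that chose the genes, so they are no test of the rise.

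At H-40 compared with H-25, LOC109820675 differed by -3.83 ± 1.03 and LOC109844968 by -3.74 ± 0.57 on the log2 scale, ranks 49 and 57 among the falls of all genes tested. This difference uses the same H-25 libraries as the choice of the genes and was not tested. In this comparison 2421 of 20352 genes (11.9%) were called higher and 2476 (12.2%) lower at H-40.

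H-40 vs. H-60 uses neither H-10 nor H-25, whose levels chose the genes. A choice by a peak at H-25 also bears on the levels at H-40 and H-60, so this comparison is not fully apart from it. Neither gene passed the test there. Of the 3 early nodulin-93-like genes limma called 0, 1 was lower at an unadjusted p under 0.05 (LOC109820675), and limma voom, run on the fragment counts recovered from the FPKM, called 0. LOC109820675 had 1.38, 11.1 and 54.5 FPKM at H-60, against 125, 43.3 and 77.1 FPKM at H-40, a log2 difference of -2.69 ± 1.03 (adjusted p = 0.146, limma). H-60 replicate 3 was above the lowest H-40 library and replicates 1 and 2 were below all of them. Without H-60 replicate 3 the difference was -3.82 and the adjusted p of limma was 0.0454, the only one of 12 such fits that called it, and without H-60 replicate 1 the difference was -1.55. LOC109844968 differed by -0.71 ± 0.57 (adjusted p = 0.524, limma), with H-60 replicate 3 above all 3 H-40 libraries and replicates 1 and 2 below them. The size of this difference was unsteady: -1.43 without H-60 replicate 3, -0.39 without H-60 replicate 2, -0.29 without H-60 replicate 1, -0.47 without H-40 replicate 1, -2.06 and -1.08 with a pseudocount of 0.1 and 0.5, and -2.24 by voom, none of them called. The genes called in this comparison were 615 higher (3.02%) and 465 lower (2.28%) at H-60.

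**Figure D2:**
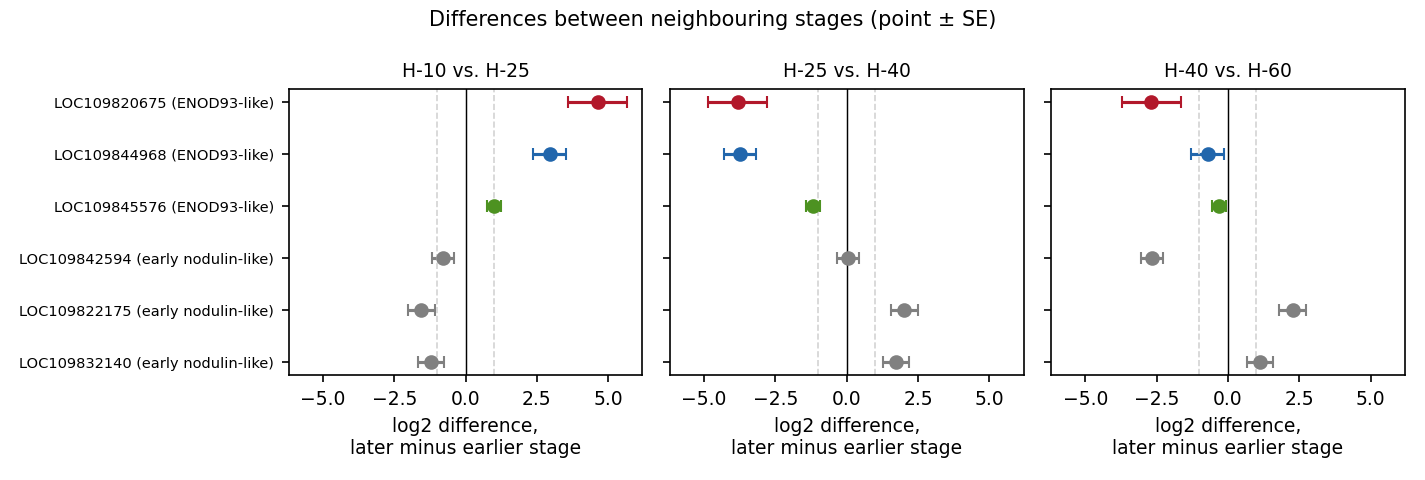
Log2 difference, later minus earlier stage, on the log2(FPKM + 1) scale (point ± SE) of the 3 early nodulin-93-like genes and the 3 tested early nodulin-like genes in the 3 comparisons of neighbouring stages; dashed lines mark a log2 difference of 1 in either direction. The 3 early nodulin-93-like genes lie right of 0 in H-10 vs. H-25 and left of it in H-25 vs. H-40, and LOC109842594 has the difference furthest from the line of no change among the early nodulin-like genes, -2.67 in H-40 vs. H-60.

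Within stages the libraries of LOC109820675 spread widely. Its highest library was 12.8 times the lowest in H-10 stems, 2.79 times in H-25 stems, 2.88 times in H-40 stems and 39.4 times in H-60 stems. For LOC109844968 this ratio was 2.5 in H-10 stems, 2.88 in H-25 stems and 3.27 in H-40 stems, and it cannot be formed in H-60 stems, where replicate 1 had no fragment. LOC109845576 was steadier, with ratios of 1.62 in H-10 stems, 1.55 in H-25 stems, 1.52 in H-40 stems and 1.58 in H-60 stems.

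The same libraries tended to be low or high in both chosen genes. H-10 replicate 2, H-25 replicate 2, H-40 replicate 2 and H-60 replicate 1 were the lowest of their stage in both, and H-25 replicate 1, H-40 replicate 1 and H-60 replicate 3 the highest in both. At H-10 the highest library was replicate 1 for LOC109820675 and replicate 3 for LOC109844968. In log2(FPKM + 1), LOC109820675 stood 1.82 above its stage mean in H-10 replicate 1 and -1.75 from it in replicate 2, while LOC109844968 stood 0.18 above and -0.60 from its own. In H-60 replicate 3 both were above their stage mean, by 2.25 for LOC109820675 and 1.46 for LOC109844968.

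**Figure D3:**
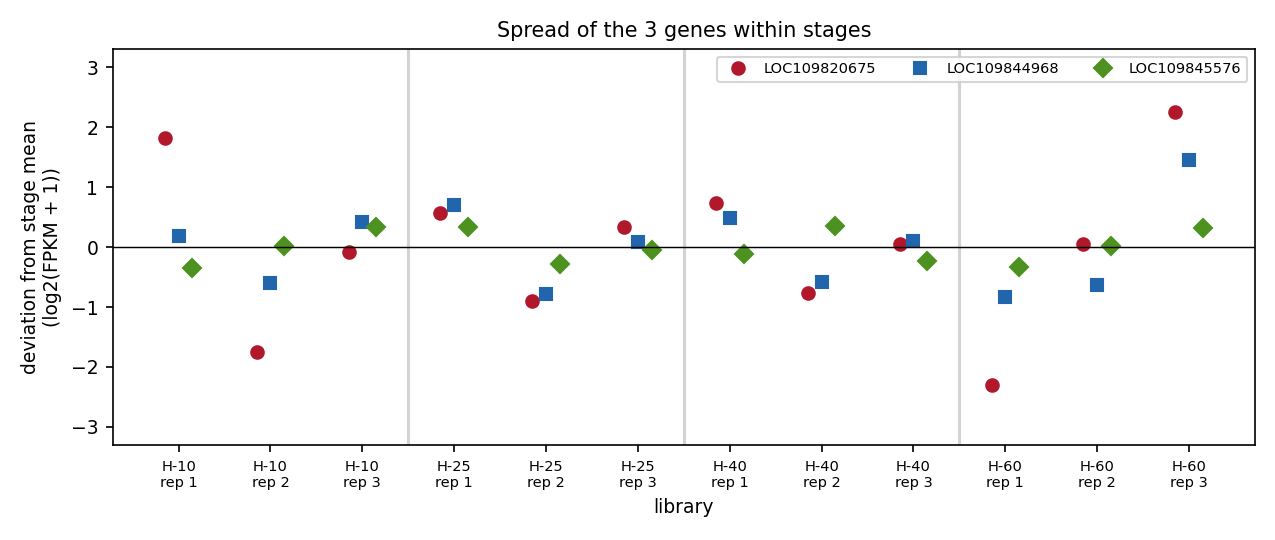
Deviation of each library from the mean of its stage, in log2(FPKM + 1), for the 3 early nodulin-93-like genes in the 12 libraries, with grey lines between stages. LOC109820675 reaches 2.25 above and -2.30 from its stage mean at H-60, while LOC109845576 deviates by at most 0.35 in every library.

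Over the 12 libraries the Pearson r of log2(FPKM + 1) between LOC109820675 and LOC109844968 was 0.92. It was 0.76 over the 9 libraries without H-25, and 0.83 over the 12 deviations from the stage means. With LOC109845576, LOC109820675 had r of 0.81 over 12 libraries, 0.37 over the 9 without H-25 and 0.21 over the deviations, and LOC109844968 had 0.91, 0.59 and 0.45. These values are descriptions, since the libraries share stages and each library's scaling enters both genes.

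LOC109820675 had more FPKM than LOC109844968 in every library. The ratio between them was 32.7, 5.22 and 7.03 in H-10 stems, 26.0, 26.8 and 33.8 in H-25 stems, and 41.0, 46.6 and 36.7 in H-40 stems. At H-60 it was 76.4 in replicate 2, where LOC109844968 had 1 fragment, and 14.1 in replicate 3. Of the summed FPKM of the 3 early nodulin-93-like genes, LOC109820675 held 78.3%, 19.0% and 37.6% in H-10 stems, 89.7%, 85.1% and 91.0% in H-25 stems, 75.0%, 44.4% and 67.4% in H-40 stems, and 5.0%, 24.8% and 54.5% in H-60 stems. Its share was highest in the H-25 libraries, and LOC109845576 held most of the sum in H-10 replicates 2 and 3, H-40 replicate 2 and H-60 replicates 1 and 2.

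LOC109845576, the only other gene of the table with this description, also had its highest level at H-25, by a smaller step. Its FPKM was 37.4, 48.5 and 60.7 in H-10 stems, 123, 79.1 and 93.1 in H-25 stems, 38.5, 53.4 and 35.2 in H-40 stems, and 26.3, 33.6 and 41.6 in H-60 stems. The lowest H-25 library was 1.30 times the highest of the other 9, and H-10, H-40 and H-60 overlapped. This gene was found by its description and was tested in all 3 comparisons. Relative to H-25 it was lower at H-40 by a log2 difference of -1.19 ± 0.24 (adjusted p = 0.00234, limma), a call that 12.2% of all genes tested shared, and this call held in all 12 fits without 1 library.

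In H-10 vs. H-25 the log2 difference of LOC109845576 was 1.0 ± 0.24 (adjusted p = 0.0331, limma), and it was not called because the unrounded difference of 0.997 fell short of 1. It was called without H-10 replicate 3 (1.16, adjusted p = 0.0310, limma) and without H-25 replicate 2 (1.14, adjusted p = 0.0132, limma). The difference ran from 0.82 to 1.16 over the 12 fits without 1 library, and the adjusted p from 0.0132 to 0.138. In H-40 vs. H-60 the difference was -0.32 ± 0.24 (adjusted p = 0.497, limma).

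Markers of dividing cells and ribosomal protein genes varied between stages and libraries too, in part with these genes and in part against them. The summed FPKM of 12 genes of dividing cells (B-type cyclins and histone H4) was 614 to 1328 in H-10 stems, 801 to 1882 in H-25 stems, 189 to 306 in H-40 stems and 142 to 185 in H-60 stems, with 2 to 4 of them at 0. H-25 replicate 2 was the lowest H-25 library for this sum, as it was for all 3 early nodulin-93-like genes. H-10 replicate 1, in contrast, was the lowest H-10 library for this sum (614 FPKM, against 1105 and 1328 in replicates 2 and 3) and the highest for LOC109820675. LOC109844968 and LOC109845576 were highest in H-10 replicate 3, as this sum was (5.70 and 60.7 FPKM), so at H-10 only LOC109820675 ran against it. Of the 9 genes of this list that were tested, limma called 0 in H-10 vs. H-25, with 0 at an unadjusted p under 0.05. Voom also called 0, and without H-25 replicate 2 limma called 1 higher. The sums at H-25 and H-10 overlapped. In H-25 vs. H-40, 7 of the 9 were called lower at H-40 (12.2% of all genes tested). The 223 cytosolic ribosomal protein genes held 3.15% to 4.30% of fragments in H-10 stems, 3.82% to 7.84% in H-25 stems, 1.33% to 1.60% in H-40 stems and 1.2% to 1.50% in H-60 stems. H-10 replicate 1 was again the lowest of its stage (3.15%).

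The summed FPKM of the 7 xylem genes was 263 to 313 in H-10 stems, 113 to 390 in H-25 stems, 1120 to 1641 in H-40 stems and 1366 to 2173 in H-60 stems, with H-25 replicate 2 the highest of its stage. For 19 phloem genes it was 130 to 190 in H-10 stems, 46.7 to 156 in H-25 stems, 164 to 231 in H-40 stems and 229 to 255 in H-60 stems. Chlorophyll a-b binding genes (17) summed to 3716 to 8008, 6552 to 9980, 9355 to 12065 and 5954 to 8484 FPKM over the same order of stages. The part of these shifts in the levels of the early nodulin-93-like genes was not tested. In such bulk libraries fewer cells of a type and less RNA per cell cannot be told apart.

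The genes named early nodulin-like, which encode cell-surface proteins related to phytocyanins and are not of the early nodulin-93 family, did not have their highest mean at H-25 in any of the 3 tested, out of 8 in the table. In H-10 vs. H-25 limma called 0 of the 3, and 2 were lower at H-25 at an unadjusted p under 0.05. Voom also called 0, and without H-25 replicate 2 limma called 2 lower. In H-25 vs. H-40, 2 of the 3 were called higher at H-40 (11.9% of all genes tested), and in H-40 vs. H-60, 1 was called higher and 1 lower at H-60 (3.02% and 2.28% of all genes tested). Their median log2 differences were -1.21, 1.73 and 1.11 in the 3 comparisons, against 0, 0.01 and 0.01 over all genes tested.

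LOC109822175, early nodulin-like protein 1, had 14.7, 11.8 and 5.13 FPKM in H-10 stems, 1.30, 7.89 and 1.39 in H-25 stems, 11.1, 17.8 and 13.4 in H-40 stems, and 69.2, 68.7 and 74.0 in H-60 stems. It was lowest at H-25, with replicate 2 above the other H-25 libraries, and highest at H-60. Its log2 difference was 2.02 ± 0.47 in H-25 vs. H-40 (adjusted p = 0.00508, limma) and 2.27 ± 0.47 in H-40 vs. H-60 (adjusted p = 0.0133, limma). LOC109832140, also described as early nodulin-like protein 1, rose at H-40 compared with H-25 by 1.73 ± 0.45 (adjusted p = 0.0102, limma). LOC109842594, early nodulin-like protein 3, had 7.37, 13.8 and 24.9 FPKM at H-60, against 77.0, 106 and 98.7 FPKM at H-40, without overlap. It fell by 2.67 ± 0.39 on the log2 scale (adjusted p = 0.00212, limma).

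Of 49 other genes named for nodulins, which include the WAT1-related transporters, 25 were tested. In H-10 vs. H-25, 0 were higher and 4 lower at H-25 by limma, 0 were higher at an unadjusted p under 0.05, and voom called 0 higher and 5 lower. The 4 are 16.0% of the list, against 2.91% of all genes tested. Without H-25 replicate 2, limma called 8 lower there. At H-40 compared with H-25, 9 were called higher and 0 lower by limma (voom 10 and 0, with 1 lower at an unadjusted p under 0.05), and 2 were called higher and 1 lower in H-60 stems than in H-40 stems. The 9 are 36.0% of the list, against 11.9% of all genes tested, and the 2 and the 1 are 8.0% and 4.0%, against 3.02% and 2.28%. The median log2 differences of the list were -0.41, 0.75 and 0.38, against 0, 0.01 and 0.01 over all genes tested. LOC109822085 and LOC109822086, nearby genes on chromosome 8, are both described as nodulin-related protein 1-like. LOC109822086 had 57.3, 46.3 and 18.4 FPKM at H-25, against 280.0, 203 and 81.0 FPKM at H-10, with no overlap, and fell by 2.15 ± 0.45 on the log2 scale (adjusted p = 0.0180, limma). LOC109822085 had 207, 340.0 and 197 FPKM at H-25, against 117, 261 and 96.8 FPKM at H-10, with overlap (0.74 ± 0.40, adjusted p = 0.311, limma).

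Because the rice gene of this family is linked to nitrogen, genes of nitrogen uptake and assimilation were listed too. Among 85 such genes, 54 were tested. In H-10 vs. H-25, 0 were called higher and 2 lower at H-25 by limma, with 4 higher and 5 lower at an unadjusted p under 0.05, while voom called 0 higher and 3 lower. Without H-25 replicate 2 these were 1 higher and 3 lower. By limma, in H-25 vs. H-40, 15 were called higher and 2 lower at H-40, and in H-40 vs. H-60, 7 higher and 3 lower at H-60. As shares of the list, the calls were 3.70% lower in H-10 vs. H-25 (2.91% of all genes tested), 27.8% higher and 3.70% lower in H-25 vs. H-40 (11.9% and 12.2%), and 13.0% higher and 5.56% lower in H-40 vs. H-60 (3.02% and 2.28%). The median log2 differences were -0.09, 0.53 and 0.11, beside the same all-gene medians of 0, 0.01 and 0.01. LOC109849342, a chloroplastic glutamine synthetase, had the highest mean FPKM of the tested genes of this list. It had 572, 535 and 531 FPKM at H-40, against 253, 452 and 273 FPKM at H-25, without overlap. It was not called there because the log2 difference fell short of 1 (0.79 ± 0.22, adjusted p = 0.0133, limma). LOC109851277, a cytosolic glutamine synthetase that fixes ammonium into glutamine, had 278, 543 and 273 FPKM at H-25, against 315, 475 and 483 FPKM at H-10, and was called in no comparison. LOC109833735, an NRT1/PTR family transporter, had 152, 185 and 172 FPKM at H-40, against 60.0, 144 and 55.0 FPKM at H-25, and was called higher (1.10 ± 0.35, adjusted p = 0.0251, limma).

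By Pearson r of log2(FPKM + 1) over the 12 libraries, among 11090 described genes with a mean of at least 10 FPKM in a stage, the genes most like LOC109820675 were LOC109850737, a universal stress protein A-like gene (r = 0.98), LOC109821343, pollen allergen Che a 1-like (0.97), LOC109849826, rhodanese-like domain-containing protein 7 (0.97), LOC109824250, ferredoxin root R-B2-like (0.97), and LOC109830273, alcohol dehydrogenase 1 (0.95). LOC109844968 came at rank 14 and LOC109845576 at rank 143. The 12 points fall into 4 stages and share each library's depth and scaling, so these values are descriptions.

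LOC109850737 had 32.4, 9.05 and 15.1 FPKM in H-10 stems, 172, 64.0 and 147 in H-25 stems, 47.4, 16.9 and 39.4 in H-40 stems, and 3.66, 5.79 and 28.6 in H-60 stems. The low H-10 replicate 2, H-25 replicate 2, H-40 replicate 2 and H-60 replicate 1 of LOC109820675 were also the lowest of their stages here. LOC109824250, a ferredoxin of the root type that carries electrons in non-green plastids, had 41.8, 25.4 and 37.6 FPKM in H-10 stems, 231, 139.9 and 194 in H-25 stems, 62.1, 26.5 and 54.1 in H-40 stems, and 14.2, 19.4 and 44.6 in H-60 stems. It had the same lowest library as LOC109820675 in each stage. Both genes were picked for their correlation over these same libraries, so the shared low libraries are no separate result.

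Of the 5 genes most like LOC109844968, LOC109830273 and LOC109824250 were also among the 5 of LOC109820675 (r = 0.97 and 0.96). The others were LOC109832797, transcription factor bHLH96-like (0.98), LOC109835924, which is uncharacterized (0.97), and LOC109841892, a D-aminoacyl-tRNA deacylase (0.96). LOC109820675 came at rank 50 and LOC109845576 at rank 81. Alcohol dehydrogenase 1 (LOC109830273), which makes ethanol in fermentation, had 129.9, 86.9 and 119 FPKM in H-10 stems, 476, 332 and 388 in H-25 stems, 104, 64.4 and 136 in H-40 stems, and 32.7, 46.0 and 80.3 in H-60 stems. LOC109832797 had 28.2, 15.8 and 33.2 FPKM in H-10 stems, 201, 69.9 and 167 in H-25 stems, 23.7, 12.4 and 25.2 in H-40 stems, and 11.1, 14.1 and 31.4 in H-60 stems. In both, every H-25 library was above the other 9, which their choice by correlation favours.

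**Figure D4:**
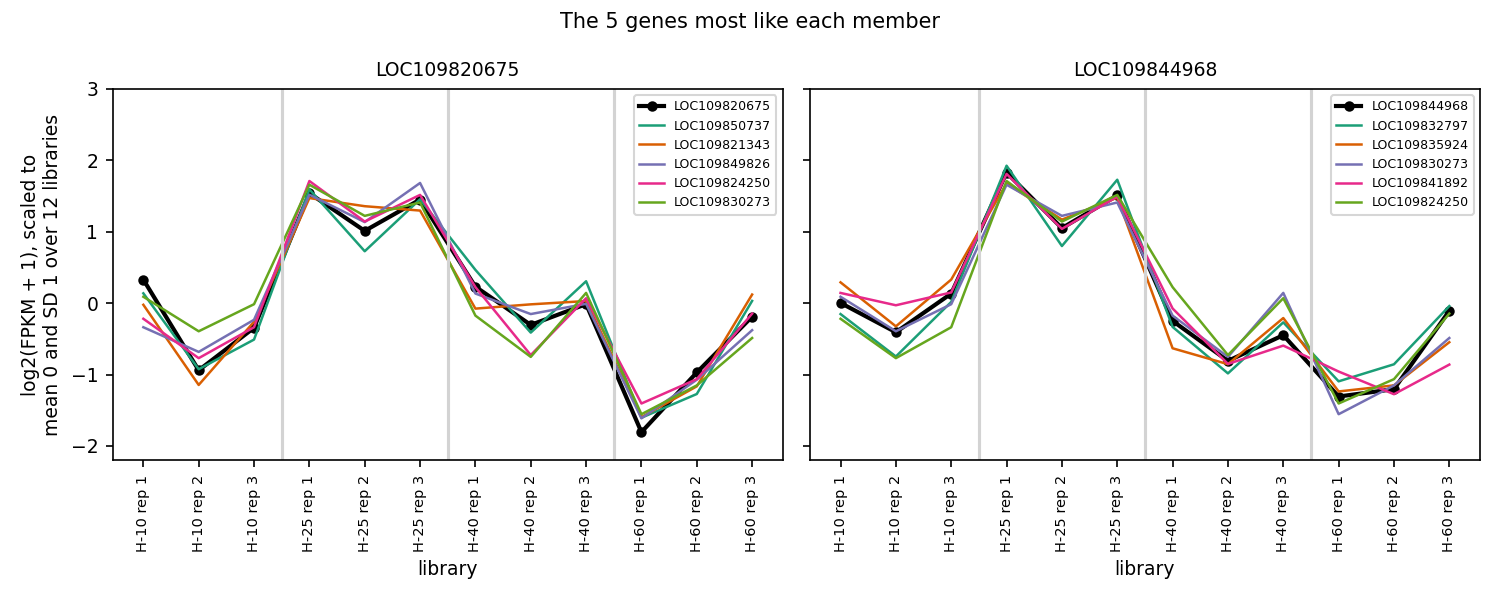
log2(FPKM + 1), scaled to mean 0 and SD 1 over the 12 libraries, of LOC109820675 (left, black) and LOC109844968 (right, black) and of the 5 described genes with the highest Pearson r to each (coloured), by library. The curves share the H-25 peak and the dip at H-25 replicate 2 for LOC109844968 and its 5 genes, while on the left LOC109821343 does not dip there (484 FPKM in replicate 2, between 511 and 470.1 FPKM in replicates 1 and 3).

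The nearest 2 annotated genes on each side of the chosen ones were looked at too. Near LOC109820675, LOC109821996 (7218 bases after it) had 9.60 to 18.7 FPKM over the 12 libraries. On the other side, LOC109822016 (33038 bases before it) had 0.51 to 2.49 FPKM, and LOC109851345 (21604 bases before it) was at 0 in all 12. LOC109820901, peptide deformylase 1A, which trims new plastid proteins, starts 19007 bases after it and had 10.7, 9.13 and 11.9 FPKM at H-40, against 28.9, 25.7 and 34.7 FPKM at H-25, without overlap. It was called lower at H-40 (-1.41 ± 0.22, adjusted p = 4.33e-04, limma) and not called in H-10 vs. H-25 (0.50 ± 0.22, adjusted p = 0.199, limma).

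Nearest to LOC109844968 was LOC109846375 (4438 bases before it), which had at most 1.15 FPKM and was not tested. LOC109845882 (14201 bases after LOC109844968) was at 0 in all 12 libraries. LOC109844647, nudix hydrolase 19 (20102 bases before LOC109844968), had 32.4 to 45.8 FPKM over the 12 libraries and was called in no comparison. LOC109845572, protein kinase PINOID 2-like, related to the kinases that steer auxin transporters in Arabidopsis, lies 58342 bases after LOC109844968. It had 19.3, 9.78 and 14.5 FPKM at H-25, against 2.83, 1.17 and 4.05 FPKM at H-10, and was called higher (2.11 ± 0.33, adjusted p = 0.00461, limma). It had 12.4, 7.27 and 8.89 FPKM at H-40, a range that overlapped H-25 (-0.54 ± 0.33, adjusted p = 0.216, limma). At H-60 it had 2.72, 2.28 and 1.50 FPKM, below all H-40 libraries (-1.72 ± 0.33, adjusted p = 0.00960, limma).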

How the data were processed

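Strand-specific RNA-seq libraries of stem segments were sequenced, 3 for each of 4 stem heights. Of the authors' tools, HISAT2, StringTie, featureCounts and DESeq2 are listed in their processing notes without settings. The table that the authors deposited holds FPKM per gene and library, scaled between libraries by the authors, beside group means that were not used. FPKM times gene length gave whole fragments for 100% of values (tolerance 0.01), so fragments per gene were recovered and used for limma voom, Poisson intervals and depth. The columns carry a stage number and a replicate number but no height, and the stage numbers were read in order of height. This order was checked against the labelled heatmap of correlations between libraries, which other orders matched less well.

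For 20352 genes with at least 1 FPKM in at least 3 libraries, a linear model of log2(FPKM + 1) with a term for each stage was fitted over the 12 libraries together (limma 3.58.1, trended eBayes, R 4.3.3). Differences are later minus earlier stage. Fold changes on this scale understate those of low genes. p-values were adjusted by Benjamini-Hochberg over all tested genes. Neighbouring comparisons share a stage. The fit was repeated with TPM, with median-of-ratios rescaling, with a pseudocount of 0.1 or 0.5, without the filter or with a mean of at least 5 FPKM, with only the compared stages, with untrended eBayes, with a replicate block, with voom, and without each library in turn. The fit was tested on simulated data. Other steps used numpy 2.4.6, pandas 2.3.3 and matplotlib 3.10.9.

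The genes and the lists were chosen with earlier results of these data known. Named genes are the chosen 2, others described as early nodulin-93, the 5 most correlated described genes (mean of at least 10 FPKM in a stage) for each, their nearest 2 genes on each side, and the highest genes of each list. Lists were built from words in the descriptions. Table coordinates were compared with the RefSeq annotation of Aspof.V1, and all 32237 genes with an ID matched at both ends.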

Additional observations from a re-analysis of the deposited data

How the results depend on the processing

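Under all alternatives run, LOC109820675 and LOC109844968 kept their directions in both comparisons that involve H-25. Leaving out each library in turn gave, for H-25 over H-10, 3.77 to 5.55 for LOC109820675 and 2.61 to 3.35 for LOC109844968, and for H-40 over H-25, -4.28 to -3.44 and -4.13 to -3.39. In H-40 vs. H-60 these fits gave -3.82 to -1.55 for LOC109820675 (adjusted p of limma 0.0454 to 0.415, called only without H-60 replicate 3) and -1.43 to -0.29 for LOC109844968 (0.108 to 0.854, never called). The 10 other alternatives gave -2.95 to -2.69 and -2.24 to -0.70 there, with no call. LOC109845576 was called higher at H-25 in H-10 vs. H-25 with pseudocounts of 0.1 (log2 difference 1.01) and 0.5 (1.0), so that 1 other early nodulin-93 gene passed, against 0 as reported, and leaving out each library gave 0 to 1. With TPM its difference was 0.77 (adjusted p = 0.0689, limma). Its adjusted p was also above 0.05 without the filter (0.0518, limma), with only the 2 stages compared (0.105, limma) and by voom (0.0524, limma voom).

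Libraries with the same replicate number correlated in their deviations from the stage means at -0.09 to 0.33 (median 0.11, 18 pairs). The 36 other pairs had -0.34 to 0.23 (median -0.06). These values do not settle whether the numbers pair libraries, and the main fit did not pair them. The replicate block called 360 and 683 genes higher and lower in H-10 vs. H-25, and left the calls of the 3 early nodulin-93-like genes as they were, with -2.69 for LOC109820675 and -0.71 for LOC109844968 in H-40 vs. H-60, and 0, 1 and 0 calls of LOC109845576 over the 3 comparisons. In H-10 vs. H-25 both chosen genes were called in 9 of the 10 other alternatives, LOC109820675 not with only the 2 stages compared in the model and LOC109844968 not with a pseudocount of 0.1. These counts too reuse the levels that chose the genes and are no test of the rise. With only the 2 stages compared, H-25 had 81 higher and 124 lower genes relative to H-10. Without H-60 replicate 2, H-60 had 251 higher and 247 lower genes relative to H-40, and these were 290 and 328 without H-60 replicate 1, and 375 and 302 without H-40 replicate 3.

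Depth limits LOC109844968 at H-40 and H-60, where 5 of 6 libraries held 25 fragments or fewer. With 3 libraries per stage, the wide spread of LOC109820675 at H-10 and H-60 limits what the test can call.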

Other observations

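After the likeness of alcohol dehydrogenase 1 to both genes had been seen, the genes of fermentation and oxygen sensing were read by description, so they were chosen after values were seen and are given without a test. They are 11 genes, of which 10 reached the filter. Their median log2 difference was 0.79 in H-10 vs. H-25, -0.61 in H-25 vs. H-40 and -0.26 in H-40 vs. H-60.

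A second alcohol dehydrogenase 1-like gene, LOC109823954, had 322, 217 and 315 FPKM in H-10 stems, 1094, 662 and 850.0 in H-25 stems, 559.8, 488 and 527 in H-40 stems, and 414, 649.7 and 784 in H-60 stems. Its H-25 and H-60 libraries overlapped. LOC109843164, a plant cysteine oxidase 2-like gene of the enzymes that sense oxygen in Arabidopsis, had 7.85, 3.99 and 4.63 FPKM in H-10 stems, 18.8, 14.1 and 15.7 in H-25 stems, 3.11, 0.63 and 4.80 in H-40 stems, and 0.16, 0.06 and 1.63 in H-60 stems, with every H-25 library above the other 9. LOC109835758, L-lactate dehydrogenase A, had 14.5, 5.85 and 13.8 FPKM at H-25, against 8.76, 4.54 and 2.28 FPKM at H-10, with overlap.

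Some other genes of the list did not have an H-25 peak, well-expressed ones among them. LOC109819513, plant cysteine oxidase 2-like, had 275, 269 and 256 FPKM at H-25, against 327, 264 and 281 FPKM at H-40. LOC109823079, plant cysteine oxidase 4-like, had 23.0, 29.0 and 24.0 FPKM at H-25, against 28.6, 44.5 and 38.2 FPKM at H-40. LOC109827034, alcohol dehydrogenase 1B, had 11.8, 24.1 and 14.4 FPKM at H-25, against 19.8, 18.3 and 20.3 FPKM at H-10. LOC109843566, pyruvate decarboxylase 2-like, had 3.23, 3.46 and 2.08 FPKM at H-25, against 5.87, 1.93 and 1.93 FPKM at H-10. LOC109849734, non-symbiotic hemoglobin 1-like, stayed below 1 FPKM in all 12 libraries.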
